A study of Homo sapiens with 4 samples.

Results

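The muscle miRNAs examined here were the array entries named miR-1, miR-206, miR-133a, miR-133b, miR-143 or miR-145, with any arm or none. The rule matched the whole name, so that miR-1 did not take in longer numbers, and it found 6 of the 1308 human entries. The entries were hsa-miR-1, hsa-miR-206, hsa-miR-133a, hsa-miR-133b, hsa-miR-143-3p and hsa-miR-145-5p, and no measured value entered the rule. They were measured in exosomes, the small vesicles that cells release, of Hep3B, an established human hepatocellular carcinoma line. The vesicles came from medium free of other exosomes, conditioned for 2 days. Exposure to 10 µM camptothecin, a drug that traps topoisomerase I on DNA and causes strand breaks, gave 2 arrays, and cells with no treatment per the labels gave the other 2. The headers of the authors' deposited table call the comparator DMSO, and which name is right was not settled. The labels do not name separate cultures for replicate arrays, whose spread may be technical.

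miR-1, miR-133a, miR-206 and miR-133b are known as myomiRs. Their genes are switched on in muscle by myogenic factors such as MyoD, MEF2 and SRF, and they tune the growth and differentiation of muscle precursors. miR-143 and miR-145 are typical of smooth muscle and fibroblasts, where they favour the contractile state. All 6 derive from paired genes, in which a miR-1 type hairpin lies beside a miR-133 type hairpin, or miR-143 beside miR-145, within a shared host transcript or close to it. None of the 6 is a miRNA that hepatocytes are known for, and miR-1, miR-143 and miR-145 are often described as reduced in liver cancer.

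The mature sequences are shown because members of different clusters share a seed, bases 2 to 8 of a miRNA, which pairs with target mRNAs. They were taken from RefSeq (GRCh38.p14), which held all 6 members, with miR-1 and miR-133a read as their 3p arms. The seed is in capitals.
miR-1-3p: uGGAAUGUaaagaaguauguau
miR-206: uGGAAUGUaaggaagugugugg
miR-613: aGGAAUGUuccuucuuugcc
miR-133a-3p: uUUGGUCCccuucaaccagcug
miR-133b: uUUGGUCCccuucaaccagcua
miR-143-3p: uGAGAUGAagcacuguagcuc
miR-6088: aGAGAUGAagcgggggggcg
miR-145-5p: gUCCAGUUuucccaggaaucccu
miR-1 and miR-206 had the same seed, GGAAUGU, which miR-613 also carried. Counting from 1 at the 5′ end, miR-206 differed from miR-1 by A11G, A17G, A21G and U22G, with 18 of 22 bases identical. miR-133a and miR-133b shared the seed UUGGUCC and differed by G22A alone, with 21 of 22 bases identical. The seed of miR-143-3p also occurred in miR-6088, and that of miR-145-5p in no other entry among the 1105 with a RefSeq sequence of exactly the same name. The files used here hold no probe sequences, so whether a probe told these relatives apart was not tested.

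The genes lay in 4 pairs. MIR1-1 (chr20:62554306-62554376, plus strand) lay in the noncoding gene MIR1-1HG, 10535 bases from MIR133A2 (chr20:62564912-62565013). MIR1-2 (chr18:21829004-21829088, minus strand) lay in MIR133A1HG, 3218 bases from MIR133A1 (chr18:21825698-21825785), and both fell within the span of the protein-coding gene MIB1. MIR206 (chr6:52144349-52144434) was 4488 bases from MIR133B (chr6:52148923-52149041), which lay in the muscle noncoding RNA gene LINCMD1. MIR143 (chr5:149428918-149429023) and MIR145 (chr5:149430646-149430733) were 1622 bases apart within CARMN, a noncoding gene of smooth muscle. The hairpins of miR-1 are shown because their mature arms, in capitals, are the same, so that 1 array entry covers both loci.
MIR1-1 (chr20): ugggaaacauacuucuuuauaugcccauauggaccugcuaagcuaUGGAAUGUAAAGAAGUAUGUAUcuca
MIR1-2 (chr18): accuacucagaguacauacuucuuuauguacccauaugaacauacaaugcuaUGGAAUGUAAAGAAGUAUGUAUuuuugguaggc
The entry for miR-133a likewise covers MIR133A1 and MIR133A2.

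Values are deposited intensities in arbitrary units. Both treated arrays ran from 109 to 8435 and both untreated arrays from 91.4 to 12998, with the 75th percentile at 250.15 on all 4. Both arrays of a group held the same set of values in a different order, so part of the spread between replicates was removed before deposit and p-values are too small. Every value was a whole multiple of a step, 0.585 in the treated and 0.427 in the untreated group, with a tolerance of 0.01 steps. If each step is 0.5 scanner units, the mean of a pair of whole readings, the treated group was multiplied by 1.17 and the untreated group by 0.854, a difference of 0.45 on the log2 scale. No reading of background was used here, so how far a dim entry stood above it is unknown. The hepatocyte miRNA hsa-miR-122-5p was near the floor, at the 3.82 percentile of level, with 135 and 139 on treated and 106 and 103 on untreated arrays.

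As deposited, 5 of the 6 muscle miRNAs rose after camptothecin and 0 fell, against 35.1% of all entries called higher and 11.2% called lower (limma, Benjamini-Hochberg adjusted p under 0.05). The changes were small, from 1.15-fold for miR-133b to 1.38-fold for miR-206, and miR-143-3p, at 1.04-fold, did not pass. Most calls were lost, over all entries as well as among the members, when any 1 array was left out. The signs of all 6 members could not turn in these fits, since both treated arrays lay above both untreated ones for each member. The log2 fold change of miR-206 was 0.45 to 0.48 in them. In vesicles from a whole culture, fewer vesicles of a kind and less of a miRNA per vesicle cannot be told apart. The median log2 fold change of the 6 was 0.27, beside 0.11 over all entries. Dim entries were mostly higher after treatment, and 4 of the 6 members were dim, so each is read below beside entries of its own level. The direction of all but miR-206 turned when the scaling factors of the groups were undone, and miR-206 then had a log2 fold change of 0.010, beside a median of -0.34 over all entries. All changes are therefore relative to the scaling the authors chose.

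miR-206, a miRNA of skeletal muscle that promotes the differentiation of myoblasts, was the brightest of the 6. It read 495 and 482 on the treated arrays and 351 and 358 on the untreated arrays. All 4 values lay above the 75th percentile, between the 83.5 and 90.1 percentiles of their arrays, and the groups did not overlap. The rise was 1.38-fold, with a log2 fold change of 0.46 ± 0.049 (SE, n = 2 arrays per group; 95% interval 0.34 to 0.59; limma adjusted p = 0.00397). The entries were split by level into 4 bands of 327. In the brightest band, where miR-206 lies, the median log2 fold change was -0.12, 18.7% of entries were called higher and 39.4% lower. miR-206 ranked 21 of 327 there by log2 fold change and 27 of 1308 overall. On the reading of the steps given above, its unscaled means were 418 and 415, treated first, while most of the array was lower.

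miR-1, which shares the seed of miR-206 and is the most abundant miRNA of heart muscle, was the next brightest. Its intensities were 337 and 330 after camptothecin and 256 and 277 without. The untreated values lay just above the 75th percentile, at the 75.8 and 78.7 percentiles, and the treated ones at 83.2 and 82.8. The log2 fold change was 0.33 ± 0.057 (SE, n = 2; 95% interval 0.18 to 0.47; limma adjusted p = 0.0118), with rank 38 of 327 in the brightest band. Unscaled, its means were 285 and 312, and that lower value after treatment gave a log2 fold change of -0.13, which did not pass (limma adjusted p = 0.0756).

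miR-145-5p, which holds back proliferation of smooth muscle and is processed more readily when p53 is active, was dim but moved further than most dim entries. Hep3B cells lack p53. It read 165 and 163 after treatment and 124 and 130 without. Its place on the arrays went from the 19.3 and 26.5 percentiles without treatment to the 46.4 and 45.0 percentiles with it. The log2 fold change was 0.36 ± 0.045 (SE, n = 2; 95% interval 0.25 to 0.48; limma adjusted p = 0.00567). In its band, the second from the bottom, where 39.1% of 327 entries were called higher and 0 lower and the median log2 fold change was 0.13, it ranked 7.

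**Figure D1:**
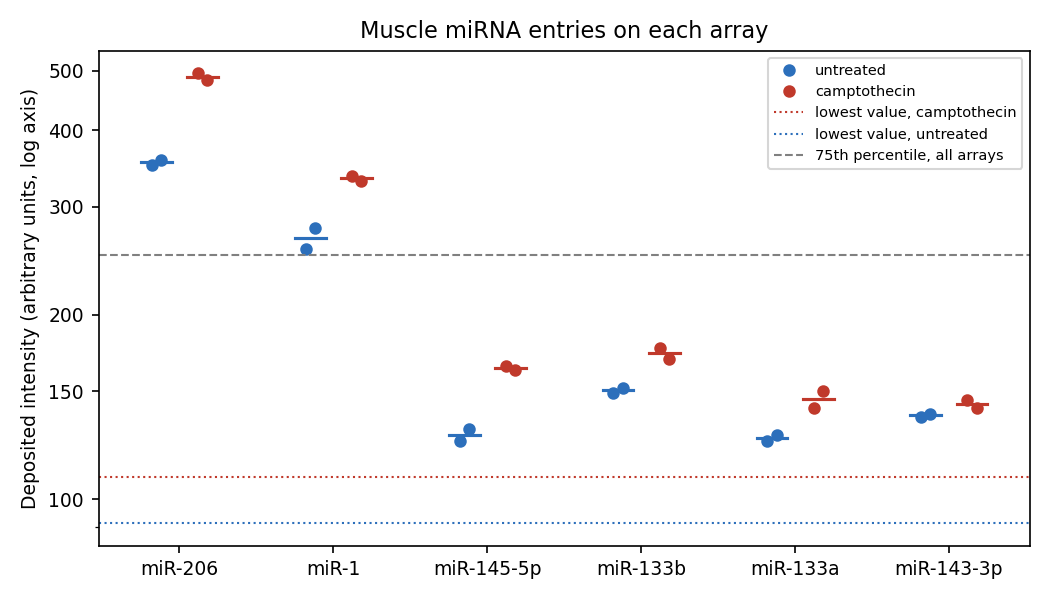
Deposited intensity (arbitrary units, log axis) of the 6 muscle miRNA entries on the 2 untreated and 2 camptothecin arrays, with points for arrays and bars for group means. The dotted lines mark the lowest value of each group's arrays and the dashed line the 75th percentile of 250.15; miR-206 and miR-1 lie above it on all 4 arrays, and the other 4 entries lie below it.

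miR-133a and miR-133b, which in muscle favour the proliferation of precursors and repress SRF, were dim and showed smaller changes than miR-206, miR-1 and miR-145-5p. miR-133a read 141 and 150.4 after camptothecin against 124 and 127, a log2 fold change of 0.21 ± 0.051 (SE, n = 2; limma adjusted p = 0.0241). The median of the dimmest band was also 0.21, 61.5% of its 327 entries were called higher, and miR-133a ranked 158 of them. miR-133b read 177 and 169 against 149 and 152, a log2 fold change of 0.20 ± 0.044 (SE, n = 2; limma adjusted p = 0.0192), and ranked 80 of 327 in the same band as miR-145-5p, whose median was 0.13. Both were called higher, and neither passed with all 4 arrays quantile normalized together, with each array centred on its median or after normexp background correction.

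miR-143-3p, the partner of miR-145 in smooth muscle, showed the smallest difference. It read 145.1 and 141 after treatment and 136 and 138 without. The treated arrays were above the untreated ones, as for all 6 members and for 59.4% of all entries. The log2 fold change was 0.06 ± 0.043 (SE, n = 2; 95% interval -0.05 to 0.17; limma adjusted p = 0.276), below the median of its band. Its sign turned under quantile normalization of all 4 arrays (-0.10), centring on the median (-0.044), normexp correction (-0.10) and with the group factors undone (-0.39). In rank it went from the 33.3 and 34.7 percentiles on untreated to the 24.3 and 18.6 percentiles on treated arrays.

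**Figure D2:**
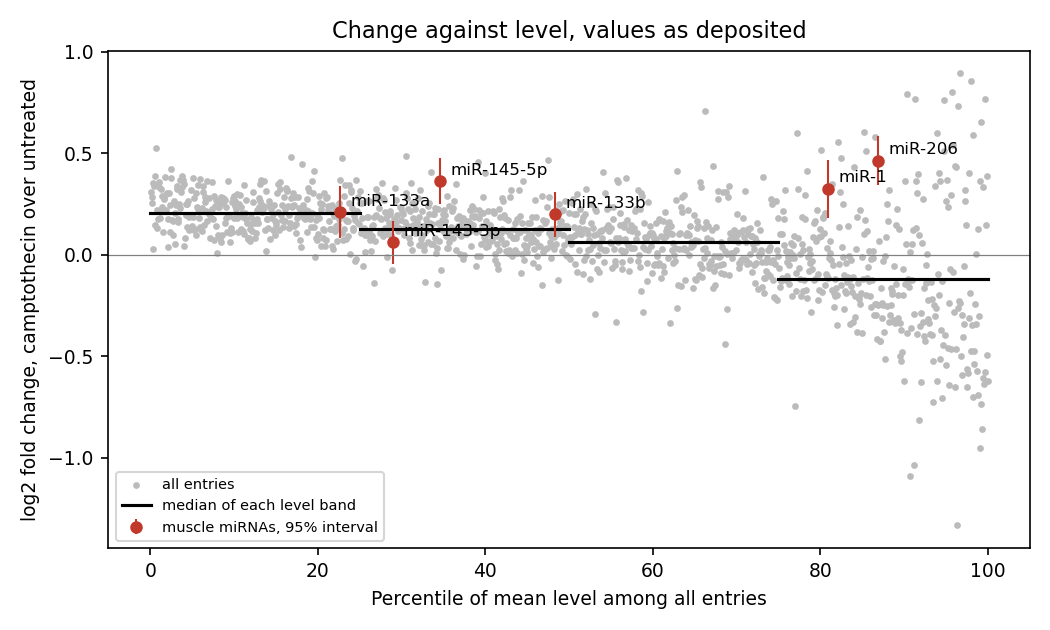
Log2 fold change (camptothecin over untreated, as deposited) against the percentile of mean level for all 1308 entries, with the 6 muscle miRNAs in red (bars, 95% interval of limma) and the median of each of the 4 level bands as a black line. miR-206, miR-1 and miR-145-5p lie well above the line of their band, miR-133b 0.070 above it, miR-133a on it and miR-143-3p below it.

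Each member was also read as its height over the lowest value of the same array, without a logarithm. miR-206 stood 386 and 373 units above it on treated arrays and 259 and 266 on untreated arrays. miR-1 stood 228 and 221.2 above it against 164 and 185, and miR-145-5p 56.2 and 53.8 against 32.9 and 38.9. For these 3 the treated arrays were above the untreated ones on this measure, which still carries the scaling factors of the groups. Heights with those factors undone were not computed. The share of all entries without overlap on this measure was not computed either, so the lack of overlap is given only as a description. miR-133a stood 32.2 and 41.5 above the lowest value after treatment and 32.9 and 35.9 without, and miR-133b 67.9 and 60.3 against 57.7 and 60.7, so that the groups overlapped for both. miR-143-3p was lower on this measure after treatment, also without overlap, with 36.3 and 32.2 against 44.9 and 46.6.

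Under quantile normalization of all 4 arrays together, 3 of the 6 members rose and 0 fell, where 6.88% of all entries were called higher. These were miR-206 (log2 fold change 0.56, limma adjusted p = 0.00359), miR-1 (0.34, limma adjusted p = 0.0204) and miR-145-5p (0.22, limma adjusted p = 0.0333). In the level bands that hold them, 18.7% (miR-206 and miR-1) and 2.14% (miR-145-5p) of entries were called higher. The same 3 passed with each array centred on its median, with log2 fold changes of 0.36, 0.22 and 0.26 in that order (9.02% of all entries called higher), and after normexp correction, with 0.61, 0.44 and 0.43 (8.10%). With the group factors undone none of the 6 passed as higher, and miR-133a (-0.24), miR-133b (-0.25) and miR-143-3p (-0.39) were called lower, as were 89.1% of all entries. Centring and undoing the factors move the fold changes of all entries alike. Among the scalings of this paragraph, the distance to the median of all entries could therefore change only with quantile normalization and normexp. It was 0.35 as deposited, 0.57 with quantile normalization and 0.57 with normexp for miR-206. In the same order it was 0.21, 0.35 and 0.40 for miR-1, and 0.25, 0.23 and 0.39 for miR-145-5p. A pseudocount of 64 before the logarithm gave 0.32 for miR-206, 0.19 for miR-1 and 0.17 for miR-145-5p.

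**Figure D3:**
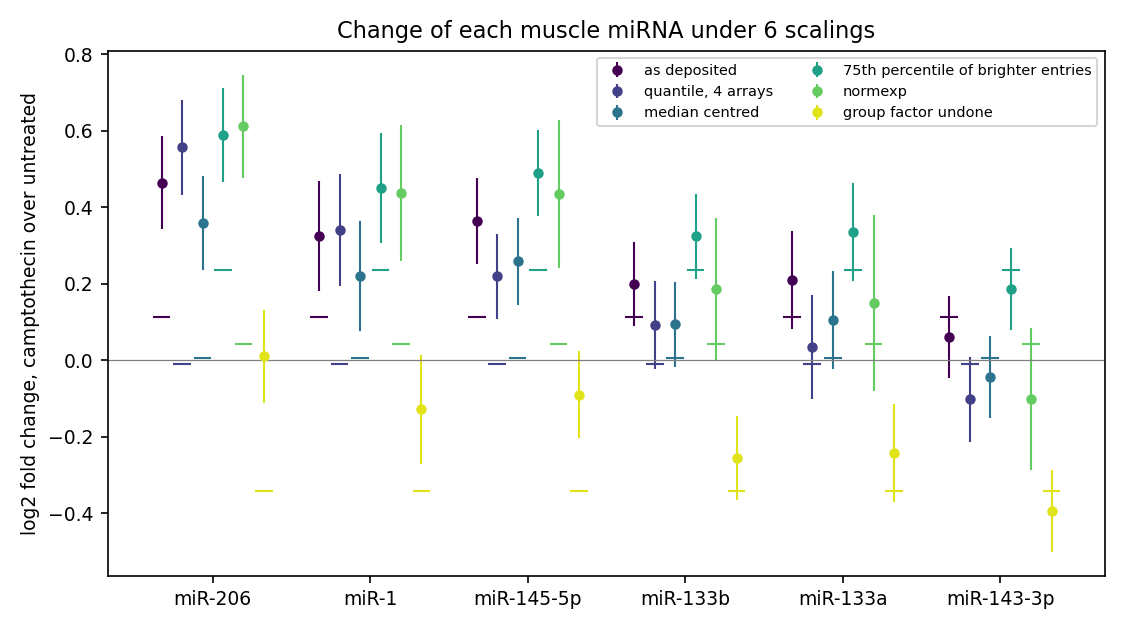
Log2 fold change of the 6 muscle miRNAs under 6 scalings of the same deposited values (points, with 95% intervals of limma), with the median over all entries under each scaling as a short horizontal line. The points of miR-206, miR-1 and miR-145-5p lie above that line in each case, by the same distance in all but quantile normalization and normexp, while those of miR-133a and miR-133b lie 0.043 to 0.14 above it and those of miR-143-3p below it.

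The pairs of genes were compared within each array, where a factor common to all entries cancels but a shift that depends on level does not. On the log2 scale miR-145-5p exceeded miR-143-3p by 0.19 and 0.21 on the treated arrays and differed from it by -0.13 and -0.08 on the untreated arrays, so that the log2 fold changes of these neighbours differed by 0.30. miR-206 exceeded miR-133b by 1.49 and 1.51 after treatment and by 1.23 on both untreated arrays, a difference in log2 fold change of 0.27. miR-1 exceeded miR-133a by 1.26 and 1.13 against 1.04 and 1.12, a difference of 0.11, and here the nearest arrays of the groups were almost level. Between members that share a seed but come from different clusters, the log2 fold changes differed by 0.14 for miR-206 and miR-1 and by 0.012 for miR-133a and miR-133b. The first 4 of these 5 differences had no overlap between groups and an exact two-sided permutation p of 0.333 (adjusted over the 5 pairs, 0.417), the smallest p that 2 arrays against 2 allow. For miR-133a and miR-133b the arrays overlapped and the exact permutation p was 1. The brightness of different probes is not a measure of the relative amounts of the miRNAs, so only the change of each difference is read.

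**Figure D4:**
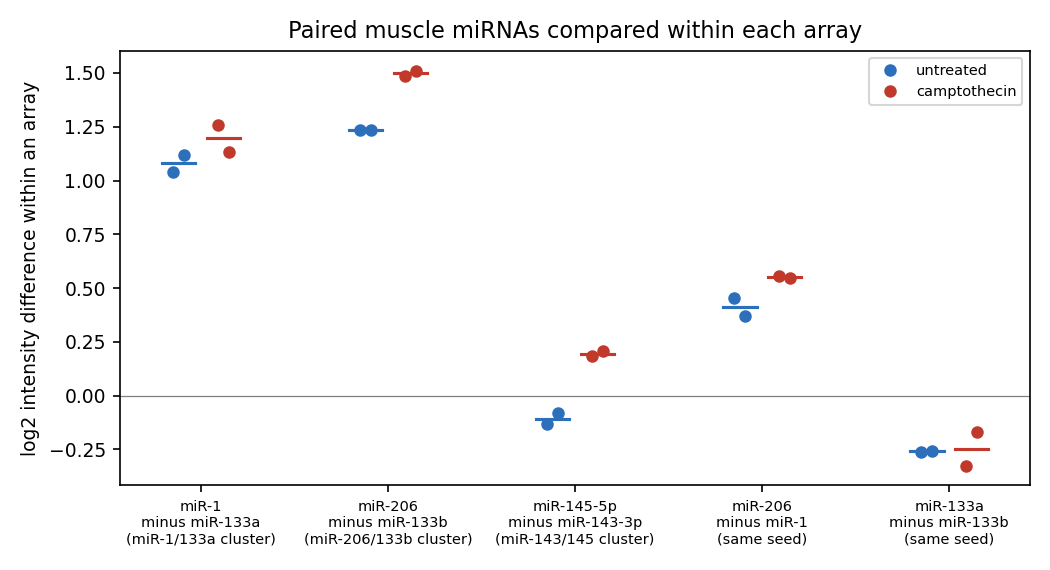
Difference in log2 intensity between the entries of 5 pairs on each of the 2 untreated and 2 camptothecin arrays, with points for arrays and bars for group means. The treated arrays lie above the untreated ones in every pair but miR-133a and miR-133b, with the widest gap of 0.30 for miR-145-5p and miR-143-3p.

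Other entries with the seeds of the members did not all follow them. miR-613, with the seed of miR-1 and miR-206, read 146 on both treated arrays and had a mean of 123 ± 0.906 (SD, n = 2) without treatment, a log2 fold change of 0.25 (limma adjusted p = 0.0109), close to the 0.21 of its band. It did not pass under quantile normalization of all 4 arrays (0.07, limma adjusted p = 0.353). miR-6088, with the seed of miR-143-3p, had a mean of 426 ± 70.8 against 528 ± 7.85 (SD, n = 2), a log2 fold change of -0.32 that did not pass (limma adjusted p = 0.0641).

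Among other miRNAs largely restricted to muscle, or enriched there, 1 of 4 entries (both arms of miR-486 and of miR-499b) rose and 0 fell, beside 35.1% of all entries called higher. That entry was miR-499b-5p, from the locus opposite miR-499a in a myosin gene, with a log2 fold change of 0.21 (limma adjusted p = 0.0165), which did not pass under quantile normalization of all 4 arrays (0.08). The median of the 4 was 0.01. miR-208a, miR-208b and miR-499a were not analysed here. Of 18 entries for miRNAs that regulate skeletal or smooth muscle growth, 7 rose and 0 fell, with a median of 0.15, and 15 of the 18 lay below the median level. The 3 largest changes were those of miR-128 (0.30), miR-27b-5p (0.28) and miR-24-3p (0.26), the last known to act in myogenic differentiation. Under quantile normalization 0 of the 18 rose and 1 fell, where 90 of all 1308 entries were called higher and 79 lower. As deposited, 7 of 18 is close to the share called higher among all entries.

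Markers of other cells that could add vesicles were read beside these values. Not all markers planned for these cells were analysed here, and both miR-486 entries are also among the muscle entries above. The summed intensity of 7 fibroblast and stroma entries (arms of miR-125b, miR-199a, miR-199b, miR-99a and miR-214) was 1367 to 1428 on treated and 1378 to 1380 on untreated arrays, and 1 rose and 1 fell (35.1% and 11.2% of all entries). The summed intensity of 5 blood and serum entries (arms of miR-486 and miR-150, and miR-223-3p) was 1011 to 1073 on treated and 991 to 1002 on untreated arrays, and 1 rose (35.1% of all entries). For 7 hepatocyte entries it was 1286 to 1371 against 1195 to 1213, and 4 rose (35.1% of all entries). Every entry in such a sum includes the lowest value of its array, 109 on treated and 91.4 on untreated arrays. Of these 7 entries, 4 lay below the median level, so the higher sum is not read as a rise of the markers. With all 4 arrays quantile normalized together, 0 of the fibroblast, blood and hepatocyte entries were called higher and 0 lower. In that setting 90 of all 1308 entries were called higher and 79 lower, so few calls could fall in lists this short. For the 4 other muscle entries the summed intensity as deposited was 771 to 774 against 737 to 762. The lowest value on any array was 91.4, so no entry read 0, and a reading by itself does not show that a marker was present. The part of other cells in the change of miR-206, miR-1 and miR-145-5p was not tested.

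The entries whose profile over the 4 arrays was nearest to each member that rose, by Euclidean distance of log2 values centred on their mean, were found as a description. With 4 arrays such a match follows mainly from the size of the change. For miR-206 they were miR-4723-3p (distance 0.044, log2 fold change 0.44) and miR-3925-3p (0.059, 0.41). For miR-1 they were miR-890 (0.034, 0.29) and miR-6511b-3p (0.040, 0.31). For miR-145-5p they were miR-1238-3p (0.012, 0.36) and miR-3664-5p (0.017, 0.37). For miR-133a they were miR-4477a (0.0049, 0.21) and miR-4468 (0.031, 0.21), and for miR-133b they were miR-4780 (0.0098, 0.21) and miR-520d-5p (0.0099, 0.21). No partner gene of a cluster was among them.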

How the data were processed

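Small RNA in Hep3B exosomes was measured on 4 arrays of 1 colour, 2 per group. Exosomes were purified from the culture medium with a kit, and their small RNA was copied, amplified and labelled with Cy5, per the labels' protocols. The deposited values are intensities on a linear scale. They had been normalized by the authors, as their shared percentile and sorted values show, with the method, the scanner and any background correction not given in the sources used here. The authors' second table holds log2 ratios of treated over control arrays, per the file headers. The largest gap between such a ratio and the same ratio taken from the intensities was 5.0e-10. That table gave the names of the entries, and 4 further columns of it were not used.

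The main test was limma 3.58.1 (R 4.3.3; lmFit, then eBayes with an intensity trend) on log2 intensity with no pseudocount, fitted to all 1308 entries. It was two-sided, and p-values were adjusted by Benjamini-Hochberg across the array, with 0.05 as the threshold. Samples were grouped by treatment and numbered as in their titles. Level is the mean log2 intensity over the 4 arrays, given as a percentile or as 1 of 4 bands of 327 entries. Pairs of members were compared within arrays by an exact permutation test. Precision is limited by the number of arrays. The code was tested on simulated data. The members and lists were chosen with earlier results of these data known. Named entries are all members, entries with a member's seed, up to 3 entries past the test from each of 2 lists of muscle miRNAs (or the 2 brightest), and the 2 nearest profiles of each member that passed. Endothelial miR-126 was not analysed here. Alternatives were other normalizations, a pseudocount of 64, a filter on dim entries, no intensity trend, the replicate block and leaving out each array. Undoing the group factors was chosen after seeing the data.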

Additional observations from a re-analysis of the deposited data

How the results depend on the processing

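Without any single array the counts of calls fell, to between 1 and 71 over all entries and between 0 and 1 among the 6 members. The loss of calls was thus not particular to the members. Each of these fits left 1 array in a group, so only effect sizes are read for the members. Their signs could not turn, since both treated arrays lay above both untreated ones for each member. The log2 fold changes were 0.45 to 0.48 for miR-206, 0.27 to 0.38 for miR-1 and 0.33 to 0.40 for miR-145-5p. They were 0.16 to 0.26 for miR-133a, 0.17 to 0.23 for miR-133b and 0.040 to 0.082 for miR-143-3p.

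Over all entries, 606 calls (459 higher, 147 lower) became 169 (90 and 79) with quantile normalization of all 4 arrays, 330 (118 and 212) after median centring, 975 (892 and 83) with scaling to the 75th percentile of the brighter entries, 191 (106 and 85) after normexp correction and 1177 (11 and 1166) with the group factors undone. With dim entries filtered out, 267 were called. Calls among the 6 members went from 5 to 3 with quantile normalization, centring, normexp and undone factors (then lower), to 6 with the other 75th percentile, and to 2 of 2 with dim entries filtered out. A pseudocount of 64 and no intensity trend left 5. miR-133a did not pass with quantile normalization (0.034), centring (0.11) or normexp (0.15), nor did miR-133b (0.092, 0.094 and 0.19). miR-143-3p was -0.10, -0.044 and -0.10 in the same order, and passed with the other 75th percentile (0.19). The cause of these shifts was not tested.

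With the group factors undone, log2 fold changes were 0.010 (miR-206), -0.13 (miR-1), -0.24 (miR-133a), -0.25 (miR-133b), -0.39 (miR-143-3p) and -0.090 (miR-145-5p). Those of other named entries turned to -0.20 (miR-613), -0.24 (miR-499b-5p), -0.15 (miR-128), -0.17 (miR-27b-5p), -0.20 (miR-24-3p), -0.16 (miR-890), -0.14 (miR-6511b-3p), -0.25 (miR-4477a), -0.25 (miR-4468), -0.014 (miR-4723-3p), -0.041 (miR-3925-3p), -0.25 (miR-4780), -0.25 (miR-520d-5p), -0.090 (miR-1238-3p) and -0.088 (miR-3664-5p), since this setting lowers every value by 0.45. Over all alternatives for the 16 other named entries, 91 values kept direction and call, 88 kept direction and lost the call, and 3 gained one. The difference in fold change between miR-133a and miR-133b turned to -0.058 with quantile normalization and -0.036 with normexp, and ranged from -0.066 to 0.090 with an array left out. The other 4 differences kept their sign in all settings run. With no overlap between groups, they could not turn when an array was left out. Of the remaining settings, only quantile normalization, normexp and the pseudocount could change them, and there their size moved. With quantile normalization and normexp, miR-1 minus miR-133a was 0.31 and 0.29, and miR-206 minus miR-133b was 0.46 and 0.43. In the same order miR-145-5p minus miR-143-3p was 0.32 and 0.54, and miR-206 minus miR-1 was 0.22 and 0.17. With the replicate block, all entries had 550 calls and the members 5, with miR-206 at 0.46 (limma adjusted p = 0.0117). The correlation between same-numbered deviations across entries was -0.072. Since both arrays of a group held the same set of values, it cannot settle whether the replicate numbers pair the arrays.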
